A study of Mus musculus with 2 samples.

Results

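The genes described here are 10 regulators of apical polarity and asymmetric cell division: Pard3, Pard6b, Prkci, Prkcz, Crb2, Llgl1, Numb, Numbl, Gpsm2 and Insc. They were chosen by name, with their gene identifiers matched without version to GENCODE M21, and all 10 were found among the 42462 named mouse genes of the deposited tables, which list 69691 features in all. The data are total RNA-seq of whole forebrain from B6NCrl mouse embryos at embryonic day 12.5. There is 1 group of 2 biological replicates, each a pool of both sexes, with 120 embryos in replicate 1 and 68 in replicate 2. No treatment, genotype or stage is compared, so no p-value is given, and errors are SDs over the 2 pools.

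In the embryonic forebrain, neural progenitors are polarised epithelial cells that line the ventricle. The Par complex (Par3, Par6 and an atypical protein kinase C) and the Crumbs complex mark the apical side, while Llgl proteins act on the basolateral side and oppose the kinase. When progenitors divide, Insc, Gpsm2 and heterotrimeric G proteins orient the spindle, and Numb proteins, which antagonise Notch, can be inherited unequally by the daughter cells.

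The libraries held 33711030 expected counts in replicate 1 and 34578499 in replicate 2. Spike-in RNAs took 9.19% of TPM in replicate 1 and 8.25% in replicate 2. All 8 markers of apical progenitors, all 6 of neurons and all 3 forebrain transcription factors were at 1 TPM or more in both replicates. None of the 4 hindbrain and spinal cord Hox genes reached that level, and 2 of them were listed at 0 in both. Markers of other cell types were present, and those of mesenchyme summed to 667 and 808 TPM in replicates 1 and 2. Choroid plexus and roof plate markers summed to 86.0 and 160 TPM, and embryonic blood markers to 5989 and 8104 TPM. In bulk tissue, fewer cells of a type and less RNA per cell cannot be told apart.

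Of the 10 genes, 9 were at 1 TPM or more in both replicates, and Insc was below it. The background is 60.0% of the 21474 named protein-coding genes (12880). Between the replicates, 0 of the 9 genes with a mean of at least 1 TPM differed by more than 25% (higher value over lower). Over the 15192 named genes at that level the share was 18.0% (2741), and 9 genes are too few to tell 0 from it. The median size of the log2 ratio between replicates was 0.05 over these 9 genes and 0.11 over all named genes at that level. Neither comparison was matched by level, as the lowest mean among the 9 genes was 10.25 TPM, for Pard6b. Expression levels over the 10 genes had a median of 29.1 TPM, beside 4.60 TPM over all protein-coding genes and 21.6 TPM over those detected.

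**Figure D1:**
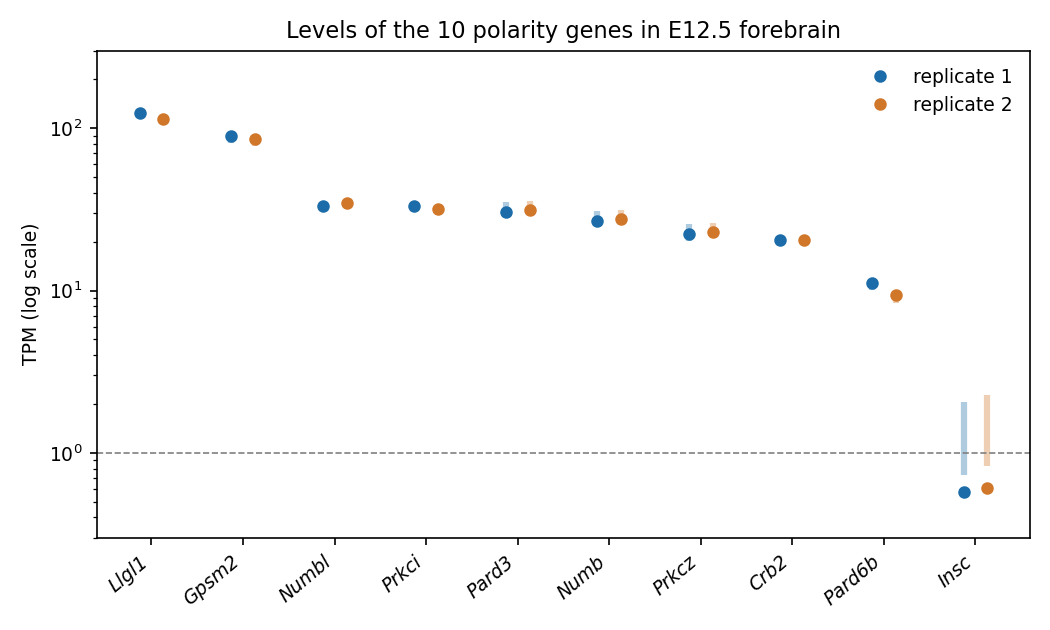
TPM of each of the 10 genes (log axis) in replicate 1 and replicate 2 (points), with the deposited interval of the posterior mean TPM in each replicate (bars) and a dashed line at 1 TPM. Llgl1 and Gpsm2 lie above the others, 7 genes lie between 9.39 and 34.50 TPM, and Insc lies below the line.

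Among the apical kinases, Prkci, which encodes the atypical protein kinase C iota, was at 33.02 and 31.92 TPM in replicates 1 and 2 (32.5 ± 0.778 TPM, SD, n = 2), from 2993 and 2943 expected counts. Its paralogue Prkcz, which encodes the zeta kinase, was at 22.3 and 22.8 TPM (22.5 ± 0.361 TPM), from 1358 and 1420 expected counts. Prkci-201, with 1785 coding bases, held 97.2% and 94.7% of Prkci TPM. Prkci was 1.48-fold above Prkcz in replicate 1 and 1.40-fold above it in replicate 2. A pair was called ordered where its log2(TPM + 1) values differed in the same direction in both replicates by more than either gene differed between the replicates, and Prkci over Prkcz met that rule. The gene totals hide what kind of Prkcz transcript was present, as its transcripts begin at separate promoters.

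The full-length kinase, with its regulatory domain, is read from a distal start. An internal start gives a form known from brain, protein kinase M zeta, that keeps the catalytic domain and lacks the regulatory part. The promoters are shown because most of the Prkcz signal was assigned to the internal one. Each runs 5′ to 3′ on the minus strand, 250 bases before to 50 bases after the RefSeq start (RefSeq, GRCm38.p6), at chr4:155361379-155361678 for the distal start and chr4:155345740-155346039 for the internal start. The capitals mark TGACGTCA, the cAMP response element, which reads the same on both strands.
Prkcz distal promoter: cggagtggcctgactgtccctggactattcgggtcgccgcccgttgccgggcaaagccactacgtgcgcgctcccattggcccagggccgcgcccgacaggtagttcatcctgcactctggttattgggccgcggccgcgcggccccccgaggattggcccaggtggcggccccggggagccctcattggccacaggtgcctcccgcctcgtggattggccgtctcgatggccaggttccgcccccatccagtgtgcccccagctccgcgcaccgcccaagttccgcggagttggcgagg
Prkcz internal promoter: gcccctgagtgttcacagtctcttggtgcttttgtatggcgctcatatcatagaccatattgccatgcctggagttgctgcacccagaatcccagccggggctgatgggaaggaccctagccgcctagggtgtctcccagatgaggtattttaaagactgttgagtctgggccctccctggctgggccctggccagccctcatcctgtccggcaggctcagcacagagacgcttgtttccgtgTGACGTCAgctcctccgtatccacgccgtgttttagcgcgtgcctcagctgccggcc

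The distal window was 71.0% G or C with 31 CG dinucleotides, and the internal window was 59.3% G or C with 13. The internal window held 1 TGACGTCA, beginning 7 bases before the RefSeq start, and the distal window held 0. That motif occurs in 588 of the 32817 mouse promoter windows of the same length (1.79%), and in no other of the 15 windows that matched the 10 genes. The distal window held 5 matches to CCAAT on either strand (ATTGG on the other), a motif that 37.4% of all windows hold, and the internal window held 0. A match is a description of the letters and shows no binding.

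Prkcz-202, which begins at the internal start (position 155345772 of chromosome 4, mm10) and has 1227 coding bases, took 65.2% of Prkcz TPM in replicate 1 and 57.1% in replicate 2. Prkcz-201, the annotated full-length transcript with 1776 coding bases, begins 15589 bases upstream at position 155361361 and took 10.5% and 22.1%. The distal share was therefore higher in replicate 2, and the deposited intervals of Prkcz-201, 1.19 to 3.36 TPM in replicate 1 and 3.26 to 6.14 TPM in replicate 2, overlapped only at their edges. Starts within 1000 bases of those of Prkcz-202 and Prkcz-201 were grouped as internal and distal. The internal group held 64.4 ± 5.77% of Prkcz TPM (SD, n = 2) and 86.7% and 77.4% of Prkcz expected counts. It included Prkcz-206 (3.18% and 3.16% of TPM), which begins at position 155345165. A further RefSeq start at 155344749, whose window is not shown, lies nearer to Prkcz-206 than the start of Prkcz-202 does. Of the TPM of the internal and distal groups, 86.7% and 73.1% came from the internal one (79.9 ± 9.61%, SD, n = 2). Both replicates thus had more internal-start than distal-start signal, with an SD over the 2 pools of 9.61 percentage points. Prkcz-202 also extends 1592 bases beyond Prkcz-201 at the 3′ end, so the start and the 3′ end were not separated in these shares. A further 18.3% and 12.6% was assigned to Prkcz-209, a 790-base transcript with no annotated coding sequence, from 56.7 and 41.5 expected counts.

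Pard3, the scaffold that recruits Par6 and the atypical kinase to apical junctions, was at 30.4 and 31.2 TPM (30.8 ± 0.544 TPM, SD, n = 2). Pard3 and Prkci were not ordered: their ratio was 0.921 in replicate 1 and 0.977 in replicate 2, and their deposited intervals overlapped in both. Pard3 was 2.20-fold above its paralogue Pard3b, which had 12.3 and 15.8 TPM, with ratios of 2.47 and 1.98 in the replicates.

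Of the 28 annotated Pard3 transcripts in the tables, 15 had 0 counts in both replicates. Pard3-209, with 25 exons and 4002 coding bases, took 44.5% and 43.3% of Pard3 TPM. Pard3-226, which ends early at position 127402577 of chromosome 8 after 16 exons and has 2223 coding bases, took 29.9% and 31.6%. Grouped by their ends, transcripts with the long end held 51.2% and 51.7% of Pard3 TPM, and those with the short end 31.5% and 31.6%. The short form thus made up 38.01 ± 0.112% of the transcripts with either end, with replicates that nearly coincided. The authors' assignment rests on reads over each end, and unspliced RNA over the intron that the short end reads into was not separated. A further 10.6 ± 0.382% of Pard3 TPM lay in transcripts annotated as retaining an intron.

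A short cassette exon of Pard3 is shown because nearly all of the signal of transcripts that span its position came from those that hold it. The exon has 45 bases, or 15 codons, at chr8:127410729-127410773 on the plus strand (mm10, GENCODE M21 transcripts). The capitals are the exon and the lower case is the spliced sequence on each side.
Pard3 45-base exon: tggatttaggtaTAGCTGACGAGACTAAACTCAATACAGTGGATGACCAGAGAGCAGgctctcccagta
Over the 14 transcripts that hold the exon or splice across it, those that hold it had 93.5% and 96.6% of the TPM (95.1 ± 2.15%, SD, n = 2), and 1 transcript, Pard3-201, skips it. Pard3-201 has 3957 coding bases of 4050 and ends at position 127610805, whereas Pard3-209, which holds the exon, ends at 127612286. Among these 14, reads past the end of Pard3-201 could be assigned only to transcripts that hold the exon. What this did to the share was not tested. The holders amounted to 15.36 of 30.40 TPM of Pard3 in replicate 1 and 15.85 of 31.17 TPM in replicate 2, as Pard3-226 ends before the exon.

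Pard6b encodes one of the Par6 adaptors that link the atypical kinase to Cdc42. Its levels were 11.1 and 9.39 TPM in replicates 1 and 2, from 739 and 650 expected counts, all in a single annotated transcript. It had the largest difference between replicates of the 10 genes, a log2 ratio of replicate 1 over replicate 2 of 0.24, or 1.18-fold. Markers of surface epithelium summed over 7 genes to 45.8 TPM (replicate 1) and 38.3 TPM (replicate 2), with 6 of the 7 detected and none at 0. Of these, 4 were higher in replicate 1 (Epcam, Krt8, Krt18 and Esrp1) and 3 in replicate 2 (Cdh1, Grhl3 and Trp63), and their part in the Pard6b difference was not tested. Pard6b was the lowest of the 3 Par6 genes in both replicates. Pard6a was at 20.4 ± 1.74 TPM, 1.99-fold above Pard6b, and Pard6g at 65.1 ± 1.00 TPM, 6.35-fold above it. Both pairs were ordered, although counts not divided by length put Pard6b above Pard6a. Pard6b was also below Pard3, which was 3.00-fold higher.

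Crb2 encodes a transmembrane Crumbs protein of the apical membrane. Levels of 20.4 and 20.6 TPM (20.5 ± 0.134 TPM, SD, n = 2) made it the closest of the 10 genes between replicates. Crb2 was 12.7-fold above Crb1, which had 1.61 ± 0.156 TPM, and 13.1-fold above Crb3, which had 2.06 and 1.07 TPM in the replicates. Both pairs were ordered, and Crb2 over Crb3 ran between 9.89-fold in replicate 1 and 19.2-fold in replicate 2. Crb2-201, with 3846 coding bases, held 95.1 ± 1.94% of Crb2 TPM. Exons of Crb2 share 113 bases with Dennd1a on the opposite strand, which was at 19.2 and 24.9 TPM, and the strand setting of the counting is not stated.

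Llgl1, a cytoskeleton-associated scaffold of the basolateral side and a substrate of atypical protein kinase C, was the highest of the 10 genes. Levels reached 125 and 114 TPM in replicates 1 and 2 (119 ± 7.78 TPM, SD, n = 2), from 10398 and 9825 expected counts. The TPM estimate lay just above the deposited interval of its posterior mean, 119 to 124 TPM in replicate 1 and 109 to 113 TPM in replicate 2. Its paralogue Llgl2 was at 2.10 ± 0.184 TPM, so Llgl1 was 56.9-fold higher, the widest gap between paralogues among the pairs. A pair of coding transcripts made up nearly all of the signal, Llgl1-202 with 60.2% and 59.9% and Llgl1-201 with 38.3% and 38.1%. Llgl1-202 holds the 87 bases at chr11:60713042-60713128 that Llgl1-201 splices out as an intron, and reads of unspliced RNA there cannot be told apart. Exons of Llgl1 share 64 bases with Flii on the opposite strand, which was at 65.0 and 63.0 TPM.

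Numb was at 27.0 and 27.7 TPM (27.4 ± 0.516 TPM, SD, n = 2), and its paralogue Numbl at 33.3 and 34.5 TPM (33.9 ± 0.849 TPM). Both encode endocytic adaptors that restrain Notch signalling and act redundantly in mouse progenitors. Numbl was 1.23-fold and 1.24-fold above Numb in replicates 1 and 2, an ordered pair whose values did not overlap. In protein-coding transcripts of 1000 bases or more alone, the mean levels were further apart, 31.4 TPM for Numbl and 11.7 TPM for Numb. That Numb value was Numb-204 alone, as the other coding Numb transcripts of that length had 0 counts in both replicates. Those others are annotated almost without untranslated sequence, and what that did to the gap was not tested. Numbl-201 held 92.5 ± 3.97% of Numbl TPM, while Numb was spread over several transcripts.

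Numb is known to be spliced alternatively at a coding exon in its phosphotyrosine-binding domain and at another in its proline-rich region. Both are shown, since the transcript shares below turn on them. They lie on the minus strand of chromosome 12 (mm10, GENCODE M21 transcripts), the exon of 33 bases at chr12:83825259-83825291 and the exon of 147 bases at chr12:83797197-83797343, and their lengths are 11 and 49 codons. Capitals mark the exon and lower case the spliced sequence on each side.
Numb 33-base exon: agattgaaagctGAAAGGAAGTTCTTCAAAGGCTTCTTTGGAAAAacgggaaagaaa
Numb 147-base exon: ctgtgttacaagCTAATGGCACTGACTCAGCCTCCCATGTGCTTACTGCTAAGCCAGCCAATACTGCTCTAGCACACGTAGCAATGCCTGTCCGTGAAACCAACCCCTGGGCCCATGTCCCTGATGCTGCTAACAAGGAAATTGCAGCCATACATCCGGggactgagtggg

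Numb-204, a coding transcript of 1779 coding bases that lacks both exons, held 43.4% and 42.2% of Numb TPM and was the most abundant in both replicates, at 11.7 TPM in each. The 147-base exon was in transcripts with 38.5% and 35.5% of the TPM of those that hold it or splice across it (37.0 ± 2.14%, SD, n = 2). With counts assigned, it was held only by Numb-202 and Numb-203, both annotated as subject to nonsense-mediated decay. Numb-203 alone took 20.5% and 19.2% of Numb TPM. The 4 transcripts at 0 counts in both replicates, Numb-201, Numb-207, Numb-209 and Numb-210, included the coding transcripts that hold the 147-base exon. Those 2, Numb-207 and Numb-210, are annotated almost without untranslated sequence, with 1959 of 1962 and 1926 of 1929 bases coding. Numb-202, Numb-203 and Numb-204 extend further at the 3′ end, where reads could not be assigned to Numb-207 or Numb-210. What this did to their counts was not tested.

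For the 33-base exon the share depended on the measure. By TPM it was 21.5% in replicate 1 and 23.6% in replicate 2 (22.5 ± 1.51%), and by expected counts 11.7% and 9.76%. Part of the included share came from the short transcripts Numb-208 and Numb-211, of 644 and 784 bases, whose few counts weigh more once divided by length. Numb-205, a 441-base transcript that retains an intron, took 18.8% and 14.2% of Numb TPM from 34.9 and 28.3 expected counts. Transcripts annotated as protein-coding held 54.1% and 62.6% of Numb TPM, and those annotated for decay 27.2% and 23.2%.

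**Figure D2:**
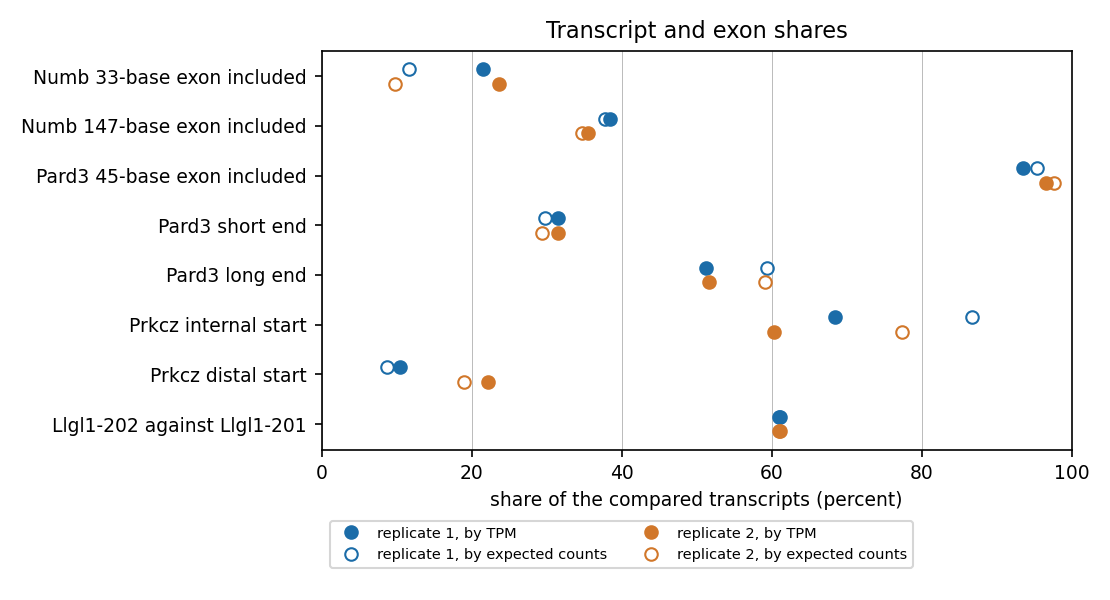
Percent of the compared transcripts, by TPM (filled) and by expected counts (open), in replicate 1 and replicate 2; exon shares are of transcripts that hold the exon or splice across it, ends and starts are of the gene's TPM, and Llgl1-202 is of both coding transcripts. The 33-base exon of Numb lies lower by counts than by TPM, and the replicates differ most for the starts of Prkcz.

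Gpsm2, which encodes the LGN adaptor that tethers the spindle to cortical G proteins, was the second highest of the 10 genes, with 90.2 and 85.3 TPM in replicates 1 and 2 (87.7 ± 3.42 TPM, SD, n = 2). Its paralogue Gpsm1, a G-protein modulator known as AGS3, was at 86.8 ± 3.80 TPM. The ratio of Gpsm2 over Gpsm1 was 1.01 in both replicates and the pair was not ordered. Gpsm2-201, with 2037 coding bases, held 73.1% and 78.7% of Gpsm2 TPM, or 65.9 and 67.2 TPM. Gpsm2-202, of 187 bases and without annotated coding sequence, held 23.4% and 17.5% from 37.5 and 27.6 expected counts. Gpsm2-201 alone was below the gene total of Gpsm1 in both replicates. Exons of Gpsm2 share 203 bases with Clcc1 on the opposite strand, which was at 57.4 and 53.8 TPM.

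Insc, the adaptor that joins Par3 to Gpsm2 and so couples polarity to the spindle, was the lowest, with 0.57 and 0.61 TPM in replicates 1 and 2, from 22 and 25 expected counts. Both values were above the level that 3 counts would give, 0.0777 and 0.0732 TPM. The deposited posterior mean was 1.34 TPM (interval 0.733 to 2.05) in replicate 1 and 1.52 TPM (interval 0.833 to 2.26) in replicate 2, so the TPM estimate lay below its own interval in both. Gpsm2 was 149-fold above Insc by TPM. At this depth the transcripts of Insc could not be ranked: Insc-208 held 0% in replicate 1 and 84.4% in replicate 2, Insc-201 held 53.6% and 0%, and Insc-205, annotated as retaining an intron, held 46.4% and 0%.

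Set in order of mean TPM, the genes ran Llgl1, Gpsm2, Numbl, Prkci, Pard3, Numb, Prkcz, Crb2, Pard6b and Insc, and 7 of the 9 neighbouring pairs met the ordering rule. The sort used the same values as the rule, so meeting it is no independent support for the order. Numbl with Prkci and Prkci with Pard3 did not. For Pard3 with Numb, Numb with Prkcz and Prkcz with Crb2 the rule was met, but the deposited intervals overlapped in both replicates. The order is clear of both limits only for Llgl1 above Gpsm2, Gpsm2 above Numbl, Crb2 above Pard6b and Pard6b above Insc. Of the 12 pairs of paralogues and partners, 10 were ordered. How often gene pairs in general meet the rule was not counted, so these counts describe the named pairs only.

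**Figure D3:**
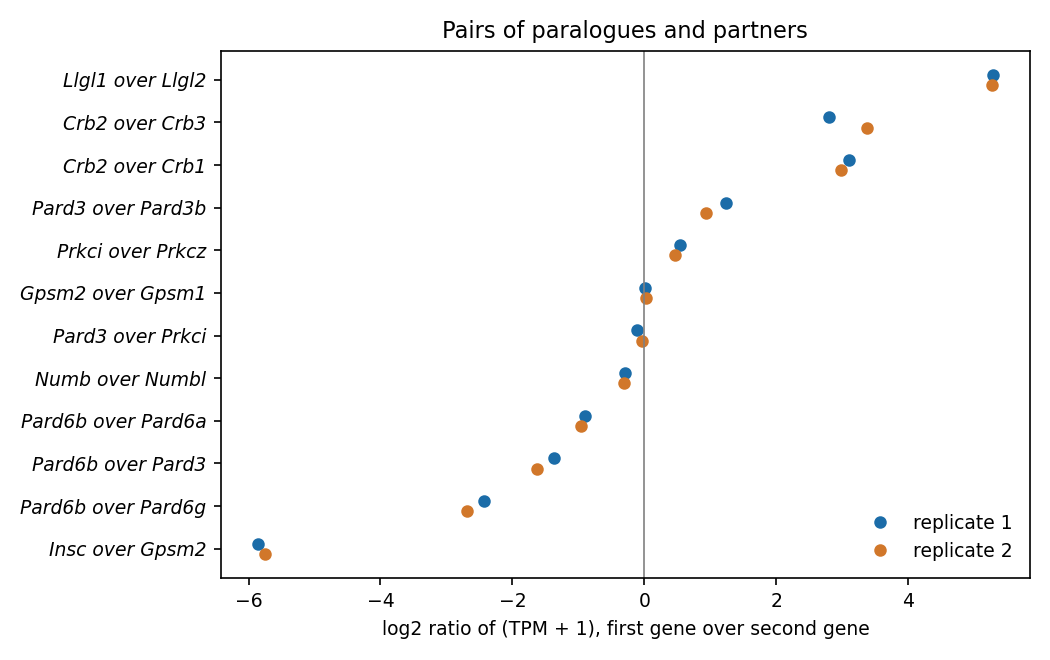
Log2 ratio of (TPM + 1) of the first gene over the second for the 12 pairs, in replicate 1 and replicate 2. Llgl1 over Llgl2 lies farthest to the right and Insc over Gpsm2 farthest to the left, while Gpsm2 over Gpsm1 and Pard3 over Prkci lie near 0.

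A wider list of polarity, spindle and junction genes placed the 10 genes among their partners. Of its 66 genes, the 10 included, 64 were at 1 TPM or more in both replicates, with a median of 35.2 TPM. Of the 56 others alone, 55 were, with a median of 40.8 TPM. The background is again 60.0% of the 21474 named protein-coding genes, not matched by level. The exceptions in the list were Insc and Lnx1, a ubiquitin ligase that targets Numb, at 0.780 ± 0.156 TPM. Between replicates 5 of the 64 genes with a mean of at least 1 TPM differed by more than 25%, none of them among the 10: Crb3 and Dlg3 were higher in replicate 1, and Pard3b, Dlg1 and Wwc1 were higher in replicate 2. Over the 15192 named genes at that level the share by TPM was 18.0% (2741), again not matched by level. With TMM-scaled counts in place of TPM, 2 genes of the wider list differed by more than 25%. The share over all genes was not counted with that scaling.

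All 8 genes of the Par complex were detected (median 26.7 TPM). Its small GTPase Cdc42 was highest at 483 ± 1.75 TPM, followed by Pard6g and Prkci. The Crumbs complex was also detected in full but lower, with a median of 6.58 TPM over 8 genes. Its highest gene was Lin7c, a PDZ adaptor, at 130 ± 6.08 TPM, followed by Crb2 and by Mpp5, the Pals1 scaffold, which was at 15.2 TPM in both replicates.

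In the Scribble module all 8 genes were detected (median 17.9 TPM), and Llgl1 was above every other gene of the module. Dlg1, a membrane scaffold, had 29.3 ± 5.90 TPM, and Scrib 23.1 ± 2.38 TPM. Among the spindle orientation genes 10 of 11 were detected, with a median of 83.0 TPM. The G-protein subunits Gnai2 and Gnai3 had 476 ± 8.44 and 166 ± 3.69 TPM, and Nde1, a dynein regulator needed for progenitor division, 133 ± 0.445 TPM. Insc was the exception in this group, below every other gene in it in both replicates.

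The fate determinants and their partners had 10 of 11 genes detected and a median of 44.5 TPM, with the RNA-binding protein Stau1 at 101 ± 2.26 TPM and the endocytic adaptor subunits Ap2a2 and Ap2a1 at 85.5 ± 3.61 and 72.9 ± 4.17 TPM. Numb and Numbl were below that median. All 12 apical junction genes were detected (median 54.8 TPM), led by Ctnnb1 (beta-catenin) at 533 ± 9.31 TPM, Cdh2 (N-cadherin) at 229 ± 14.2 TPM and Afdn (afadin) at 142 ± 11.4 TPM. Of the other Par genes and partners of the atypical kinase, all 8 were detected (median 30.2 TPM), with Ywhaz, a 14-3-3 protein, at 963 ± 138 TPM, the scaffold Sqstm1 at 138 ± 2.11 TPM and the Par1 kinase Mark3 at 46.8 ± 2.32 TPM.

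**Figure D4:**
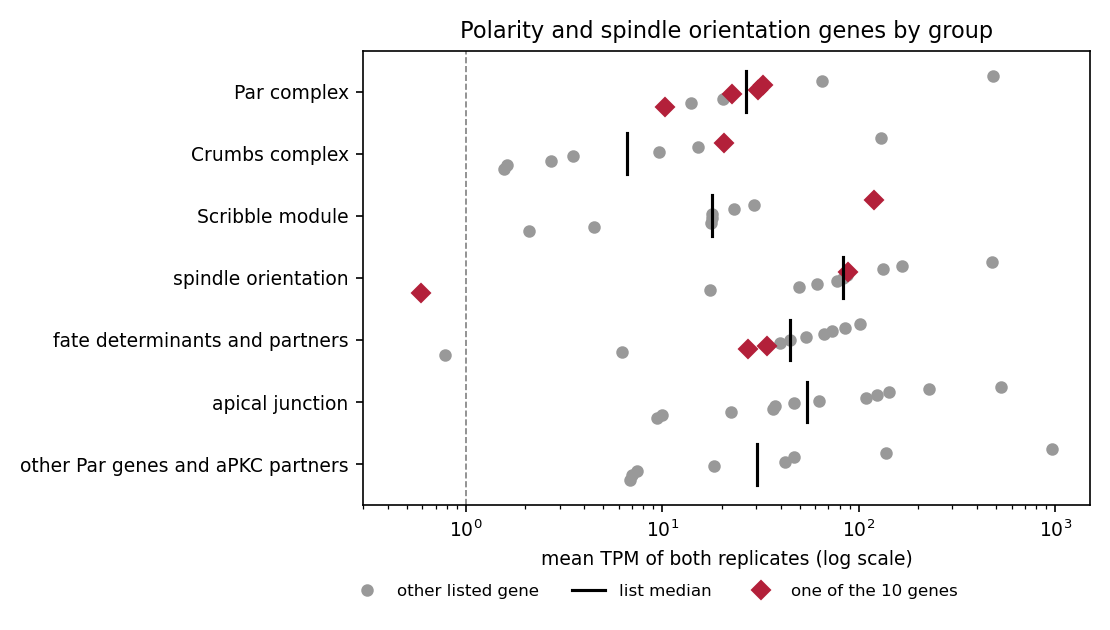
Mean TPM of both replicates (log axis) for each gene of the 7 groups, with the 10 genes as diamonds, other listed genes as circles, the group median as a vertical bar and a dashed line at 1 TPM. Llgl1 is the highest gene of the Scribble module, and Insc is the lowest of the spindle orientation genes.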

How the data were processed

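Each replicate came with its own gene and transcript tables. Per the text deposited with them, they were made on mm10 with GENCODE M4; which aligner, quantifier and strand setting were used is not stated. The authors deposited expected counts, which are estimated and need not be whole, and TPM, scaled over all features including spike-ins. Shares of a gene's TPM by transcript, in percent, are the authors' own. The deposited interval bounds of the posterior mean TPM, signal values on the TPM scale, have no stated level. Per the labels, 10 ng of RNA entered each library, and the series title says that a later deposit replaces it, which was not used here. Reads carry no molecular identifiers as far as the labels say, so intervals and floors cover counting and assignment only.

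Symbols were taken from GENCODE M21 by identifier. A gene was called detected at 1 TPM or more in both replicates, and ratios between genes used a pseudocount of 1 TPM. Fold changes are plain ratios of TPM. Named were the 10 genes, the 3 highest genes of each group, every paired gene, and transcripts at a mean of 10% or more; other genes, transcripts and markers were named after their values were seen. The members and the lists were chosen with earlier results of these data known. The longer Numb exon was taken with its annotated length. Expected counts were whole in both replicates for 8 of the 10 genes and fractional for Gpsm2 and Crb2. Expected counts were rounded for edgeR 4.0.16, whose TMM factors gave a biological coefficient of variation of 0.0803 over 16639 genes, and DESeq2 1.42.0 gave size factors; neither was used to test. The counting of pairs and folds was run on simulated data with replicate noise set below that coefficient of variation. It therefore cannot show how often the counting errs at the noise of these data. Python 3.11.15, pandas 2.3.3, numpy 2.4.6, matplotlib 3.10.9 and R 4.3.3 were used.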

Additional observations from a re-analysis of the deposited data

How the results depend on the processing

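Detection of the 10 genes stood at 9 or 10, and of the wider list between 61 and 66, over thresholds of 0.5 and 2 TPM, a minimum of 10 expected counts and either replicate alone. No member passed 25% between replicates under any scaling tried. Under either pseudocount, posterior means, rescaled TPM and TMM counts, 10 pairs were ordered. With TMM counts, however, Pard6b and Pard6a were ordered in the opposite direction. Pairs were not counted with DESeq2 size factors. Rescaling TPM to the named mouse genes raised every member by a factor of at least 1.099 and moved no pair across the rule. With TMM counts, in which gene length is left in, the log2 ratio of Pard6b over Pard6a turned to 0.47, that of Gpsm2 over Gpsm1 to -0.0040 and that of Pard3 over Prkci to 0.054; posterior means gave 0.018 for Pard3 over Prkci. The posterior mean level of Insc was 2.42 times its TPM. An alternative added after seeing the data kept only protein-coding transcripts of 1000 bases or more. It left Numb at 0.428 of its TPM and the other members at between 0.695 (Insc) and 1.0 (Pard6b) of theirs. Wider-list genes past 25% numbered 2 with TMM and 2 with DESeq2 size factors, against 5 by TPM, the only scale on which the share over all genes was counted. These settings, and shares by expected counts, were chosen after seeing the data. By expected counts the shares were 10.7% for the 33-base exon of Numb, 29.6% and 59.2% for the short and long ends of Pard3 (33.3% for short against long), 82.0% for the internal start of Prkcz over all its transcripts (64.4% by TPM) and 60.9% for Llgl1-202 against Llgl1-201. From posterior means they were 39.5% for the 147-base exon of Numb, 28.1%, 47.5% and 37.2% for the Pard3 ends, and 61.0% for Llgl1-202. The causes of these differences were not tested. Depth limits Insc, whose counts are too few to rank its transcripts, and 2 pools limit every error given. No paired analysis was possible because there is 1 group.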
